A study of Mus musculus with 10 samples.

Results

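The genes described here encode the machinery that loads, docks and releases synaptic vesicles. They were chosen by name, from a list of 44 mouse symbols made with earlier results of these data known. All 44 were found by identifier in both deposited tables, among 26411 genes in the table of the surgery experiment and 55886 in that of the injection experiment, or 57099 identifiers in all. The tissue was the mouse trigeminal ganglion, which holds the cell bodies of the sensory neurons of the face. In the surgery experiment, ganglia were collected on day 10 after the operation that the labels call pIONT (3 libraries) or on day 10 after sham surgery (3 libraries). In the injection experiment, the ganglion was injected with urocortin 1 (UCN1), a peptide of the corticotropin-releasing factor family (2 libraries), or with phosphate-buffered saline (PBS, 2 libraries), and collected 6 hours later. The labels give no strain, age, genotype or number of animals per library. They also do not say whether libraries of a group came from separate animals, and the spread behind each p-value is that between these libraries, which may be technical.

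A vesicle fuses with the plasma membrane when a vesicle SNARE protein zips up with its partners on the membrane, and calcium sensors such as the synaptotagmins trigger that step. Active zone scaffolds and priming factors hold vesicles ready, complexins clamp the assembled SNARE bundle, an ATPase takes used bundles apart, and endocytic proteins retrieve the membrane. The cell bodies in the ganglion make these proteins and send most of them along the axon to central terminals in the brainstem and to endings in the periphery. The tables therefore give transcript levels in the ganglion and not the amount of protein at synapses.

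Levels are in FPKM, which scales reads to the length of the gene and the depth of the library, so that genes can be compared within a table. The 2 tables were made with different gene lengths and annotations, and levels were not compared across them. Depth, recovered from the steps of the low values, was 25.6 to 29.6 M reads (M for 1e6) in pIONT and 24.1 to 28.7 M in sham libraries, and 16.5 to 17.1 M in UCN1 and 15.7 to 17.0 M in PBS libraries. Genes with a mean of at least 0.5 FPKM over the libraries of a table were tested with limma on log2(FPKM + 0.5), and a gene is said to be called at an adjusted p under 0.05. Fold changes are on that log2 scale, on which changes of low genes come out too small. Among all 14672 genes tested after pIONT, 1537 rose and 1807 fell, and the split was 1067 and 2631 when libraries were rescaled by pan-neuronal genes. Among 16139 genes tested after UCN1, 49 rose and 48 fell.

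After pIONT the release genes were lower more often than higher. Of the 44 genes, 43 were tested, 22 fell and 5 rose, while Syn3, a synapsin, was below the filter. The 22 that fell were 51.2% of those tested, beside 12.3% of all genes, and the 5 that rose were 11.6%, beside 10.5% of all genes. Because the list was made with earlier results of these data known, these shares describe it and do not test it. Together 62.8% were called, beside 22.8% of all genes. Of the 44 genes, 35 averaged at least 10 FPKM in sham libraries, and no share was computed among genes of a like level. Doc2b passed the filter only through its level in pIONT libraries and so had to differ; without it, 4 of 42 rose, 22 fell and the median log2 fold change was -0.21, beside -0.02 over all genes tested. In 31 of the 43 genes every pIONT value lay on 1 side of every sham value (72.1%), a pattern held by 43.4% of all genes. None of the 22 decreases reached a factor of 2 on the log2(FPKM + 0.5) scale, and the lowest value was -0.82. Leaving out Doc2b, at 0.94, the highest increase was 0.68, in Syt4.

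**Figure D1:**
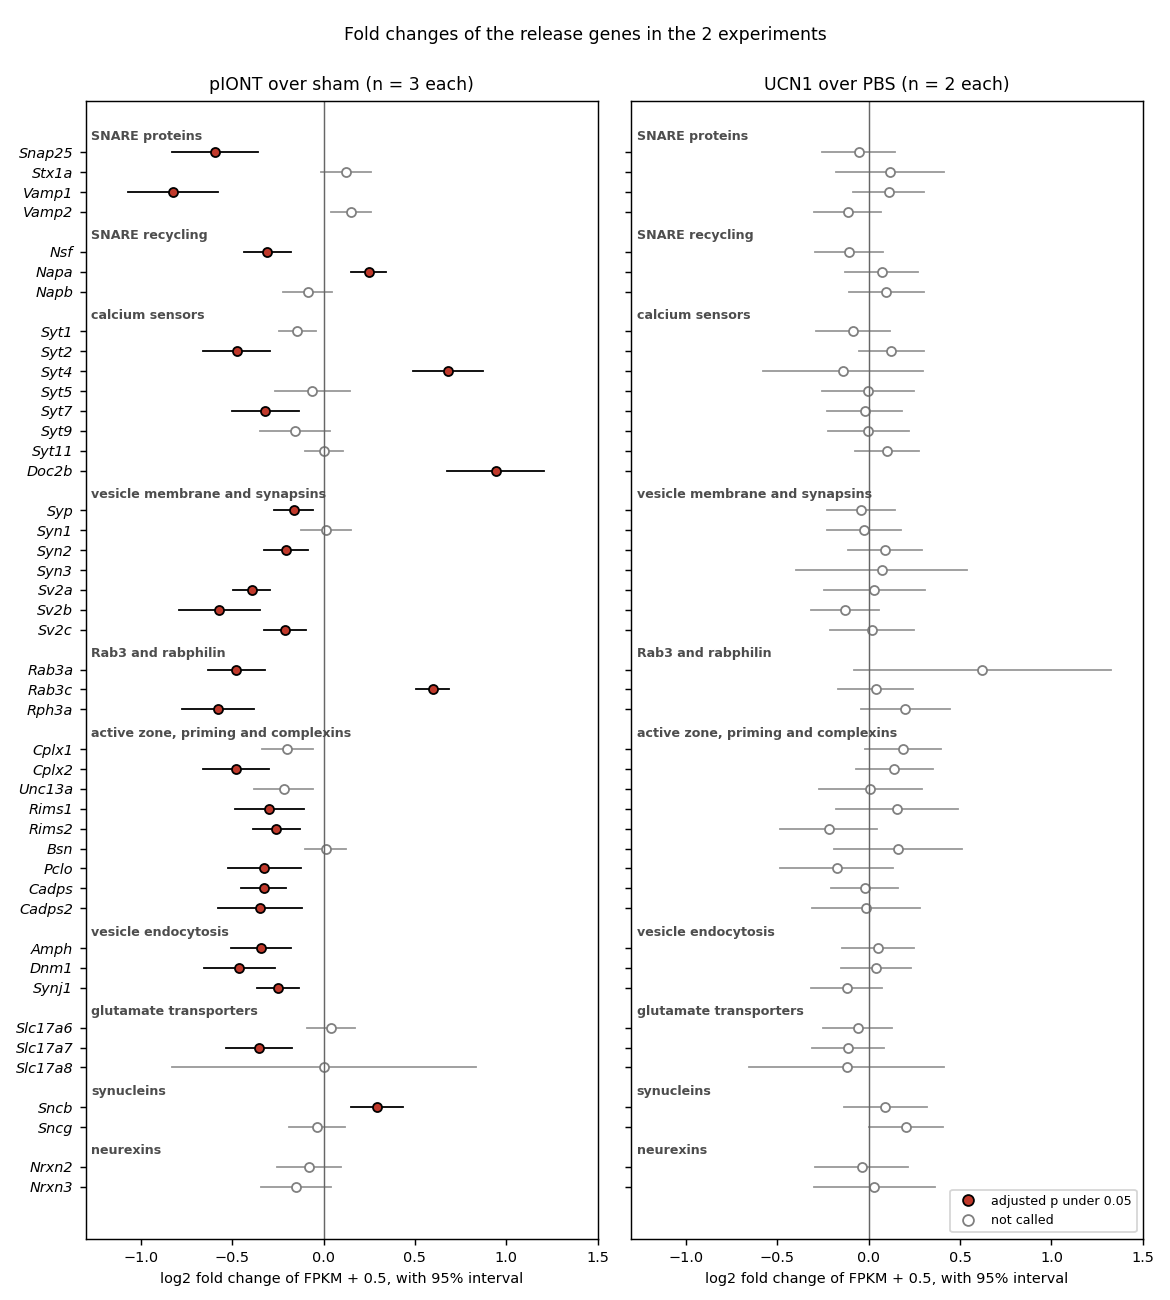
Log2 fold change of FPKM + 0.5 (horizontal axis) of each tested release gene, grouped by role, for pIONT over sham (left, n = 3 each) and UCN1 over PBS (right, n = 2 each). Lines are 95% intervals from limma and filled points are called genes: 27 on the left and 0 on the right; Syn3 on the left and Doc2b on the right were below the filter.

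Promoter sequences are shown for 4 genes in which a searched motif was found, because genes of this machinery are known targets of the repressor REST, which binds the RE1 element, and because the injury and cAMP responses of sensory neurons act through AP-1 sites and cAMP response elements. RefSeq windows on GRCm38.p6, running from 250 bases before to 50 after a start site, were searched for 35 of the 44 genes. The other 9 were not searched, so nothing is said about motifs in them. Motifs were searched on both strands. The letters TTCAGCACC, the left part of the RE1 element, were in 2 of 35 genes (5.71%), beside 0.433% of 27025 genes. The letters GGACAG, from its right part, were in 10 of 35 (28.6%), beside 24.7%. The cAMP response element TGACGTCA was in 2 of 35 (5.71%), beside 2.03%, and the AP-1 letters TGANTCA were in 3 of 35 (8.57%), beside 8.97%. A match is only a run of letters in this window and no test was made of its presence. Capitals mark every match to these 4 motifs, 5′ to 3′ on the gene's strand; in Syt2 a GGACAG match on the other strand and the AP-1 match lie next to each other.
Unc13a, chr8:71671708-71672007, minus strand: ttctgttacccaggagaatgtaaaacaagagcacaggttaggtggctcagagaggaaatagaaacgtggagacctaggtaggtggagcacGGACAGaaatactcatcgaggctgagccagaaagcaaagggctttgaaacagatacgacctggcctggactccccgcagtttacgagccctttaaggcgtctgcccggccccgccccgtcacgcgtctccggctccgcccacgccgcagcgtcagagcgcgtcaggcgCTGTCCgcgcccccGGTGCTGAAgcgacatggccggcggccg
Syn1, chrX:20920869-20921168, minus strand: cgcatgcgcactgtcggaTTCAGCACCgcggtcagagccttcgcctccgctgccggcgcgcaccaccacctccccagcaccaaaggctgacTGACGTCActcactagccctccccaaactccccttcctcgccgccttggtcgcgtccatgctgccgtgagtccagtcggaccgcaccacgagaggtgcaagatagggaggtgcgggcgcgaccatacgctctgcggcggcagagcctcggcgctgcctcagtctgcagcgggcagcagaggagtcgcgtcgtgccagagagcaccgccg
Napa, chr7:16098330-16098629, plus strand: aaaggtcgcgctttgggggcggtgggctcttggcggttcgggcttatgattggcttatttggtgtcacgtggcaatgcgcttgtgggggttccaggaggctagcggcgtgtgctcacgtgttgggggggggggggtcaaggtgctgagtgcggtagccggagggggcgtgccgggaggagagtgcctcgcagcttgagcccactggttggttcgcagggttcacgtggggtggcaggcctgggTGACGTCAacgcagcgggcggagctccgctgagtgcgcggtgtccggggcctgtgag
Syt2, chr1:134709050-134709349, plus strand, 1 of 2 windows: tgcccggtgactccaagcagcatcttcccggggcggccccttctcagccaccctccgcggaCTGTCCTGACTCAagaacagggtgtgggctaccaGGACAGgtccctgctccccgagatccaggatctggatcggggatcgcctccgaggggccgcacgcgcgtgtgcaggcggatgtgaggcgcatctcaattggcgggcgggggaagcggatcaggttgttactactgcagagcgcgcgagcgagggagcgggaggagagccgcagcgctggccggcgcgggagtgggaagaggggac
Unc13a and Syn1 held the RE1 letters and neither was called after pIONT. In Unc13a they lay on the other strand with their first printed base at 23 bases after the start, and in Syn1 232 bases before it. Napa, which rose, held the cAMP response element 7 bases before its start, and Syn1 held one 159 bases before. Syt2, which fell, had the AP-1 letters 183 bases before its start. The genes that held a motif thus included called and uncalled ones.

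The SNARE proteins did not move together. Snap25, the membrane SNARE cut by botulinum toxin A (chr2:136713453-136782428 on GRCm38), was at 138, 119.7 and 157 FPKM in pIONT libraries, against 195, 218 and 212 FPKM in sham libraries. All pIONT values lay below all sham values, and the mean was 66.5% of sham. Snap25 averaged 138 ± 18.9 FPKM in pIONT and 208 ± 11.8 FPKM in sham libraries (SD, n = 3 each), with a log2 fold change of -0.59 ± 0.10 (SE, adjusted p = 0.00799 by limma). Vamp1, a synaptobrevin of the vesicle membrane (chr6:125215551-125245964), was at 54.4, 43.99 and 59.5 FPKM in pIONT libraries, against 89.4, 95.4 and 93.9 FPKM in sham libraries. It was the member with the lowest log2 fold change, -0.82 ± 0.10 (SE, adjusted p = 0.00326 by limma), and its pIONT values, lowest in pIONT 2, did not overlap the sham values. Its paralog Vamp2 was at 85.8, 89.4 and 84.5 FPKM in pIONT libraries, against 74.5, 80.6 and 78.8 FPKM in sham libraries. Those groups did not overlap either, in the other direction, but Vamp2 was not called, at 0.15 ± 0.05 (SE, adjusted p = 0.0554 by limma). Stx1a, syntaxin on the plasma membrane, had a log2 fold change of 0.12 with a 95% interval of -0.01 to 0.26 and was not called (limma adjusted p = 0.167). The calls of Snap25 and Vamp1 were kept in all 15 alternatives of the processing, and Vamp2 was called in 2 of them, with median-of-ratios scaling and with voom (limma adjusted p = 0.0456 to 0.208 over the 15).

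The proteins that take SNARE bundles apart also split. Nsf, the ATPase that does so, was at 52.4, 47.3 and 52.1 FPKM in pIONT libraries, against 60.2, 65.1 and 62.7 FPKM in sham libraries. Napa, its adaptor alpha-SNAP (chr7:16098458-16117975), was at 95.8, 97.6 and 92.7 FPKM in pIONT libraries, against 79.8, 78.4 and 82.6 FPKM in sham libraries. In each gene the groups did not overlap, with Nsf lower in every pIONT library and Napa higher. Nsf had a log2 fold change of -0.31 ± 0.05 (SE, adjusted p = 0.0095 by limma) and Napa of 0.25 ± 0.04 (SE, adjusted p = 0.00775 by limma). Napb, the neuronal adaptor beta-SNAP, overlapped between groups and was not called, at -0.09 with a 95% interval of -0.22 to 0.05 (limma adjusted p = 0.306). The calls of Nsf and Napa were kept in all 15 alternatives.

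Among the synaptotagmins, listed here as calcium sensors though not all bind calcium, Syt4 rose, 2 fell and 4 were not called. Doc2b, of the same list, is given only as a description. Syt2, a fast sensor like Syt1, was at 39.97, 34.4 and 41.4 FPKM in pIONT libraries, against 51.5, 52.5 and 57.2 FPKM in sham libraries. Syt7, a slower sensor of high calcium affinity, was at 25.1, 20.9 and 24.6 FPKM in pIONT libraries, against 27.7, 30.8 and 29.7 FPKM in sham libraries. All pIONT values of these 2 genes were below all sham values, with log2 fold changes of -0.48 ± 0.08 (SE, adjusted p = 0.00754 by limma) for Syt2 and -0.32 ± 0.08 (SE, adjusted p = 0.0283 by limma) for Syt7. Syt4, a synaptotagmin found on dense-core and Golgi-derived vesicles, was at 55.7, 58.3 and 64.9 FPKM in pIONT libraries, against 37.5, 40.1 and 33.5 FPKM in sham libraries. Its lowest pIONT value was above its highest sham value, the mean was 161% of sham and the log2 fold change was 0.68 ± 0.08 (SE, adjusted p = 0.00263 by limma). Doc2b, a calcium sensor linked to spontaneous and asynchronous release (chr11:75768966-75796049), was at 0.816, 0.944 and 0.713 FPKM in pIONT libraries, against 0.184, 0.207 and 0.171 FPKM in sham libraries. These values rest on 91, 120 and 92 reads in pIONT and 22, 26 and 18 reads in sham libraries, with no overlap. Doc2b had a log2 fold change of 0.94, given as a description, since its mean over the 6 libraries, 0.506 FPKM, passed the filter only through the pIONT libraries.

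Syt1, the main fast sensor of the forebrain, missed the threshold at -0.14 ± 0.04 (SE, adjusted p = 0.0501 by limma), with no overlap between the groups. A filter at 2 FPKM, TPM or pan-neuronal scaling and voom brought it past the threshold, 4 of 15 alternatives (limma adjusted p = 0.0121 to 0.154 over the 15). Syt11, a synaptotagmin that does not bind calcium, had the highest level of this list, at 272, 252 and 259 FPKM in pIONT libraries, against 260.3, 259.9 and 263 FPKM in sham libraries. Its groups overlapped and its 95% interval was -0.10 to 0.11. Syt5 and Syt9, sensors of vesicles and secretory granules, overlapped between groups and had log2 fold changes of -0.06 and -0.16 (limma adjusted p = 0.649 and 0.206). Antisense genes share 14.5%, 5.53% and 5.13% of the exon bases of Syt4, Doc2b and Syt7, so their reads may be included. The call of Syt7 was lost without a filter, without sham 2 or sham 3 and in the fit with the replicate number as a block (limma adjusted p = 0.00608 to 0.0915 over the 15).

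Among the proteins of the vesicle membrane and the synapsins 5 of 6 tested genes fell. Sv2b, one of the SV2 glycoproteins that receive botulinum toxin A (chr7:75114894-75309262), was at 23.4, 19.7 and 26.1 FPKM in pIONT libraries, against 34.3, 34.1 and 34.5 FPKM in sham libraries. Sv2a, its widely expressed relative and the target of the drug levetiracetam, was at 7.80, 7.97 and 8.24 FPKM in pIONT libraries, against 10.5, 10.9 and 10.6 FPKM in sham libraries. Sv2c, the third of the family, was at 66.2, 61.7 and 68.3 FPKM in pIONT libraries, against 74.0, 77.1 and 75.7 FPKM in sham libraries. All 3 were lower in every pIONT library than in any sham library. The log2 fold changes were -0.57 ± 0.09 (SE, adjusted p = 0.00756 by limma) for Sv2b, -0.39 ± 0.04 (SE, adjusted p = 0.00184 by limma) for Sv2a and -0.21 ± 0.05 (SE, adjusted p = 0.0234 by limma) for Sv2c. Syp (synaptophysin), an abundant vesicle protein, was at 76.8, 73.1 and 76.9 FPKM in pIONT libraries, against 81.4, 88.0 and 85.0 FPKM in sham libraries. Syn2, a synapsin that tethers vesicles to each other, was at 19.6, 17.9 and 19.7 FPKM in pIONT libraries, against 21.3, 22.2 and 22.6 FPKM in sham libraries. The decreases were small, with log2 fold changes of -0.16 ± 0.05 (SE, adjusted p = 0.0407 by limma) for Syp and -0.21 ± 0.05 (SE, adjusted p = 0.0287 by limma) for Syn2, and the groups did not overlap. Syn1, the best known synapsin, was at 103, 93.2 and 98.0 FPKM in pIONT libraries, against 91.6, 97.0 and 103 FPKM in sham libraries. These groups overlapped, with a log2 fold change of 0.02 and a 95% interval of -0.12 to 0.15. Syn3 was at 0.433, 0.422 and 0.434 FPKM in pIONT libraries, against 0.428, 0.527 and 0.351 FPKM in sham libraries, below the filter. The calls of Sv2a and Sv2b were kept in all 15 alternatives. Those of Sv2c, Syn2 and Syp were kept in 10, 8 and 6, each lost when any 1 sham library was left out (limma adjusted p = 0.00462 to 0.0817, 0.00682 to 0.101 and 0.00679 to 0.128 over the 15). Of the exon bases of Syp, 16.8% are shared with an antisense gene.

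The small GTPases of the vesicle moved in opposite directions. Rab3a, the Rab3 form with the higher level in these libraries, was at 129, 116 and 134 FPKM in pIONT libraries, against 167, 182 and 179 FPKM in sham libraries. Rab3c, a close paralog (chr13:110054187-110280996), was at 19.1, 19.3 and 19.4 FPKM in pIONT libraries, against 12.4, 12.9 and 12.3 FPKM in sham libraries. The 3 pIONT values of Rab3c lay close together and above all sham values, while those of Rab3a lay below all sham values. Rab3a had a log2 fold change of -0.48 ± 0.07 (SE, adjusted p = 0.00444 by limma) and Rab3c of 0.60 ± 0.04 (SE, adjusted p = 0.000186 by limma), the smallest p among the members. Rph3a (rabphilin), an effector that binds Rab3 on the vesicle (chr5:120940499-121010092), was at 67.2, 54.6 and 65.4 FPKM in pIONT libraries, against 89.8, 91.3 and 98.1 FPKM in sham libraries. It followed Rab3a in direction, with no overlap and a log2 fold change of -0.58 ± 0.08 (SE, adjusted p = 0.00493 by limma). The 3 calls were kept in all 15 alternatives.

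Pairs that moved apart were also set against each other within each library; these pairs were chosen after their values were seen, and no test was made. The ratio of Rab3c to Rab3a was 0.148, 0.166 and 0.144 in pIONT libraries, against 0.0746, 0.0707 and 0.0689 in sham libraries. The ratio of Vamp1 to Vamp2 was 0.634, 0.492 and 0.705 in pIONT libraries, against 1.20, 1.18 and 1.19 in sham libraries. By FPKM Vamp1 was the higher of the synaptobrevin transcripts in each sham library and the lower one in each pIONT library. In reads, which are not divided by gene length, Vamp1 had at least 13065 and Vamp2 at most 9943 in every library. The ratio of Syt4 to Syt2 was 1.39, 1.70 and 1.57 in pIONT libraries, against 0.729, 0.763 and 0.587 in sham libraries. By FPKM the order of these 2 genes differed too, but Syt4 had at most 7479 reads and Syt2 at least 7669 in every library. The order within a pair thus depends on the gene lengths used for FPKM, while the fold difference in its ratio between groups does not. The ratio of Napa to Nsf was 1.83, 2.06 and 1.78 in pIONT libraries, against 1.33, 1.20 and 1.32 in sham libraries. These ratios do not depend on how libraries are scaled. Of 8 ratios computed the groups did not overlap in any, which the choice of genes that had moved apart favoured. After UCN1 the groups overlapped in the ratios of Rab3c to Rab3a, Syt4 to Syt2, Napa to Napb, Cplx2 to Cplx1 and Slc17a7 to Slc17a6. They did not overlap in those of Vamp1 to Vamp2, Napa to Nsf and Sncb to Sncg. The ratio of Vamp1 to Vamp2 was 1.13 and 1.31 in UCN1 libraries, against 1.06 and 1.02 in PBS libraries. With 2 libraries a group, 45.5% of all single genes did not overlap either.

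**Figure D2:**
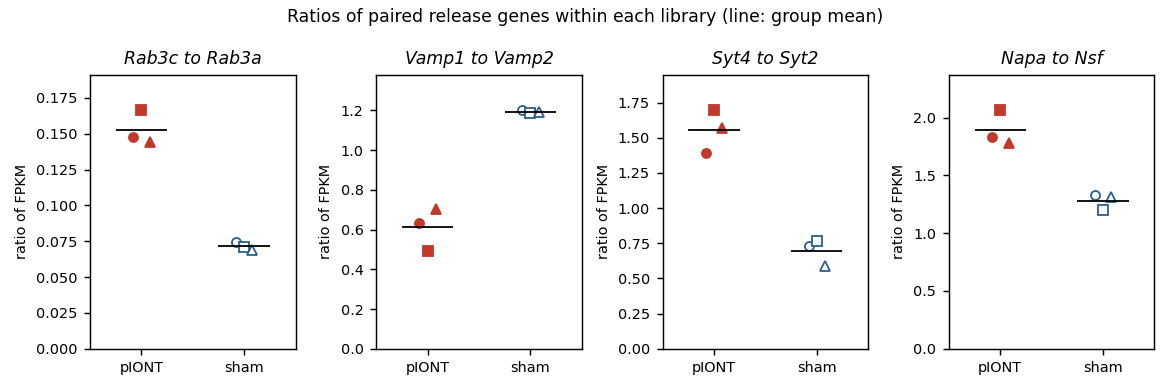
Ratio of the FPKM of 2 release genes within each library (vertical axis, from 0) in the 3 pIONT and 3 sham libraries of the surgery experiment; lines are group means and the same symbol marks the same replicate number. The Vamp1 to Vamp2 ratio lies at 0.492 to 0.705 in pIONT and 1.18 to 1.20 in sham libraries.

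At the active zone 6 of 9 genes fell and 0 rose. Cplx2, a complexin, was at 38.0, 31.1 and 34.4 FPKM in pIONT libraries, against 48.4, 45.7 and 50.3 FPKM in sham libraries. Cadps, which primes dense-core vesicles, was at 25.2, 23.6 and 26.5 FPKM in pIONT libraries, against 31.1, 32.4 and 31.2 FPKM in sham libraries, and its paralog Cadps2 was at 3.28, 2.90 and 3.73 FPKM in pIONT libraries, against 4.70, 4.36 and 3.95 FPKM in sham libraries. All 3 were lower in every pIONT library, with log2 fold changes of -0.48 ± 0.08 (SE, adjusted p = 0.00687 by limma) for Cplx2, -0.33 ± 0.05 (SE, adjusted p = 0.00668 by limma) for Cadps and -0.35 ± 0.10 (SE, adjusted p = 0.0421 by limma) for Cadps2. The scaffold Rims1, which ties Rab3 and calcium channels to the active zone, was at 7.21, 6.52 and 8.10 FPKM in pIONT libraries, against 8.95, 9.48 and 8.66 FPKM in sham libraries. Its paralog Rims2 was at 3.96, 3.65 and 3.96 FPKM in pIONT libraries, against 4.65, 4.84 and 4.65 FPKM in sham libraries. The giant scaffold Pclo (piccolo) was at 4.67, 4.12 and 5.18 FPKM in pIONT libraries, against 6.32, 5.81 and 5.67 FPKM in sham libraries. Each of these genes separated the groups, and the log2 fold changes were -0.30 ± 0.08 (SE, adjusted p = 0.0372 by limma) for Rims1, -0.26 ± 0.05 (SE, adjusted p = 0.0165 by limma) for Rims2 and -0.32 ± 0.08 (SE, adjusted p = 0.0348 by limma) for Pclo. Bsn (bassoon), the partner scaffold of piccolo, overlapped between groups at 8.34, 7.92 and 8.23 FPKM in pIONT libraries, against 7.80, 8.38 and 8.09 FPKM in sham libraries. Its log2 fold change was 0.01, with a 95% interval of -0.10 to 0.12.

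Cplx1 had the highest level of this group, at 547, 499.5 and 545 FPKM in pIONT libraries, against 582, 634 and 610.3 FPKM in sham libraries. It and the priming factor Unc13a were lower in every pIONT library but missed the threshold, at -0.20 ± 0.06 (SE, adjusted p = 0.0517 by limma) for Cplx1 and -0.22 ± 0.07 (SE, adjusted p = 0.059 by limma) for Unc13a. Each was called in 3 of 15 alternatives, both with pan-neuronal scaling and with voom, Cplx1 also at 2 FPKM and Unc13a also without pIONT 3 (limma adjusted p = 0.00853 to 0.198 and 0.0164 to 0.142 over the 15). The calls of Cplx2 and Cadps were kept in all 15, and those of Rims2, Pclo, Rims1 and Cadps2 in 12, 8, 7 and 7. All 4 of these were lost without sham 2, without sham 3 and in the fit with the replicate number as a block (limma adjusted p = 0.007 to 0.0633, 0.0175 to 0.103, 0.0116 to 0.11 and 0.0226 to 0.119 over the 15).

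All 3 endocytic genes fell. Dnm1, the neuronal dynamin that pinches vesicles off the membrane, was at 91.0, 73.6 and 88.3 FPKM in pIONT libraries, against 112, 116 and 119 FPKM in sham libraries. Amph (amphiphysin), which brings dynamin to the neck of the vesicle, was at 39.9, 34.3 and 40.5 FPKM in pIONT libraries, against 46.6, 49.8 and 49.0 FPKM in sham libraries. Synj1, a lipid phosphatase that helps to strip the clathrin coat, was at 24.2, 21.8 and 23.8 FPKM in pIONT libraries, against 27.4, 28.1 and 27.6 FPKM in sham libraries. No pIONT value of these genes reached the sham range, and the log2 fold changes were -0.46 ± 0.08 (SE, adjusted p = 0.00945 by limma) for Dnm1, -0.34 ± 0.07 (SE, adjusted p = 0.0145 by limma) for Amph and -0.25 ± 0.05 (SE, adjusted p = 0.0131 by limma) for Synj1. The call of Dnm1 was kept in all 15 alternatives; that of Amph was lost without sham 2 or sham 3 and that of Synj1 without sham 3 (limma adjusted p = 0.00327 to 0.0578 and 0.00368 to 0.051 over the 15).

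Of the vesicular glutamate transporters only Slc17a7 was called. Slc17a7 (VGLUT1), which in sensory ganglia marks mainly large neurons, was at 42.7, 36.4 and 41.3 FPKM in pIONT libraries, against 47.9, 50.8 and 55.4 FPKM in sham libraries. Slc17a6 (VGLUT2), found in most sensory neurons including nociceptors, was at 44.7, 45.5 and 48.6 FPKM in pIONT libraries, against 43.6, 48.1 and 43.3 FPKM in sham libraries. The Slc17a7 groups did not overlap and its log2 fold change was -0.35 ± 0.08 (SE, adjusted p = 0.0191 by limma), while the Slc17a6 groups overlapped, with a log2 fold change of 0.04 and a 95% interval of -0.09 to 0.17. The difference between the 2 transporters was not tested. Slc17a8 (VGLUT3), of low-threshold mechanoreceptors, varied between libraries of both groups, at 0.738, 1.65 and 0.859 FPKM in pIONT libraries, against 1.08, 0.450 and 1.89 FPKM in sham libraries. The call of Slc17a7 was lost without sham 2 or sham 3 (limma adjusted p = 0.00573 to 0.0663 over the 15).

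Of the synucleins, vesicle-binding proteins, Sncb rose. Sncb was at 71.7, 67.6 and 67.0 FPKM in pIONT libraries, against 54.3, 53.2 and 60.8 FPKM in sham libraries, with no overlap and a log2 fold change of 0.29 ± 0.06 (SE, adjusted p = 0.0158 by limma). Sncg (gamma-synuclein), abundant in sensory neurons, had the highest level of all the release genes, at 1566, 1560.0 and 1721 FPKM in pIONT libraries, against 1628, 1724 and 1613 FPKM in sham libraries. Its groups overlapped and its 95% interval was -0.19 to 0.12. The neurexins, presynaptic adhesion receptors, were not called. Nrxn2 was at 13.4, 11.2 and 12.2 FPKM in pIONT libraries, against 12.3, 12.7 and 13.9 FPKM in sham libraries, and Nrxn3 was at 2.96, 2.62 and 3.25 FPKM in pIONT libraries, against 3.46, 3.15 and 3.35 FPKM in sham libraries. Values of the 2 groups overlapped in each, and the log2 fold changes were -0.08 and -0.15 (limma adjusted p = 0.489 and 0.218). The call of Sncb was lost without sham 1 or sham 2 (limma adjusted p = 0.0106 to 0.0551 over the 15).

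**Figure D3:**
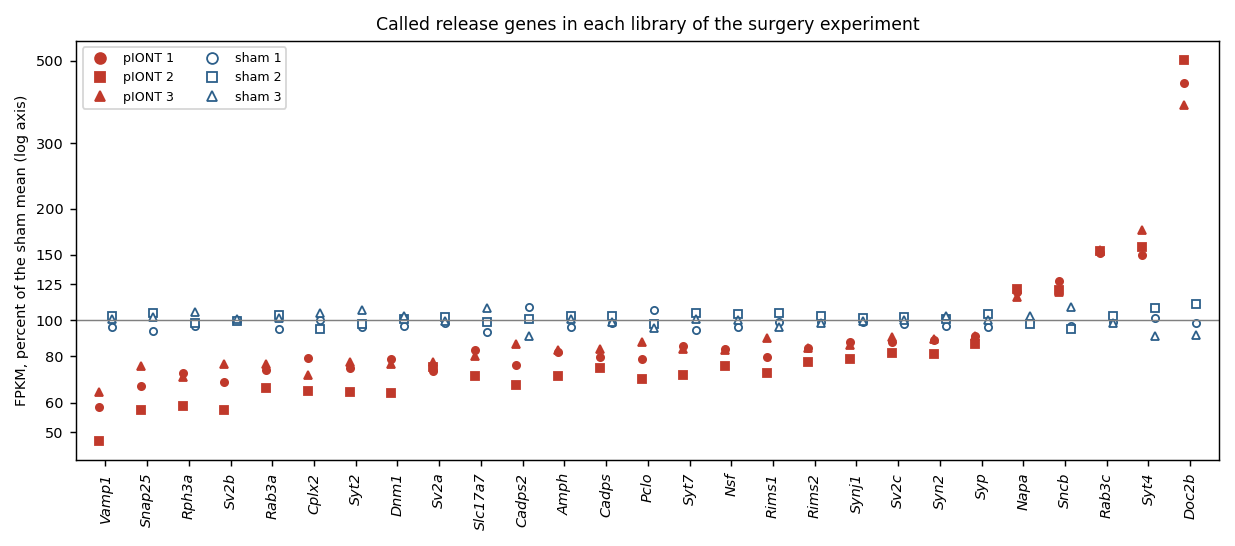
FPKM of the 27 called release genes in each library of the surgery experiment as a percentage of the sham mean (vertical log axis), ordered by log2 fold change. Filled red symbols are pIONT and open blue symbols are sham libraries; pIONT 2 (squares) is the lowest library in 21 of the 22 genes that fell.

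The libraries of the pIONT group were not alike. pIONT 2 had the lowest value in 21 of the 22 genes that fell and pIONT 1 in 1, and pIONT 2 was highest in 2 of the 5 that rose. In pIONT 2 the 6 macrophage markers summed to 638 FPKM, against 258 and 228 FPKM in the other pIONT libraries and 110.3 to 195 FPKM in sham libraries, and 3 of the 6 rose. Without pIONT 2, 17 release genes were called lower and 4 higher. Sham 1 stood apart in the other group, with pituitary genes summing to 767 FPKM, against 80.8 and 255 FPKM in the other sham libraries and 117 to 132 FPKM in pIONT libraries. Genes of central glia were also highest in sham 1, with a sum of 14.8 FPKM, against 7.79 and 7.72 FPKM in the other sham libraries and 6.80 to 7.83 FPKM in pIONT libraries. Without sham 1, 16 release genes were called lower and 4 higher. The count of lower genes was smaller still without either of the other controls, with 12 without sham 2 and 11 without sham 3. Among all genes, leaving out sham 2 or sham 3 left 2076 and 1689 calls, beside 3344 with every library. A core of 11 lower genes was called in all 15 alternatives: Snap25, Vamp1, Nsf, Syt2, Sv2a, Sv2b, Rab3a, Rph3a, Cplx2, Cadps and Dnm1. Of the genes that rose, Napa, Rab3c and Syt4 were called in all 15; for Doc2b, which the filter selects on its level in pIONT libraries, the count of calls says nothing about stability. No called gene of the 27 changed direction in any of the alternatives. Every pIONT value of these genes lay on 1 side of every sham value. Leaving out a library, or another pseudocount, filter or replicate block, could therefore not change their direction.

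Markers of the ganglion's cells were at high levels and moved as well. Of 12 pan-neuronal genes 5 rose and 3 fell, with a summed level of 6678 to 6825 FPKM in pIONT and 5540.0 to 6030.0 FPKM in sham libraries and a median log2 fold change of -0.04. The sums separated through Tubb3, a neuronal tubulin, at 2193, 2255 and 2000.0 FPKM in pIONT libraries, against 1125, 1202 and 1160.0 FPKM in sham libraries. Without it they overlapped, at 4571 to 4678 FPKM in pIONT and 4415 to 4828 FPKM in sham libraries, a choice made after its values were seen. When libraries were rescaled by all 12 genes, 25 release genes were called lower and 5 higher. That scaling includes Tubb3, which had the highest log2 fold change of the list, 0.89. The same 12 genes were used wherever pan-neuronal scaling is named, and no scaling without Tubb3 was made. Of 9 genes of large A-fibre neurons 6 fell and 1 rose, with a summed level of 752 to 856 FPKM in pIONT and 995 to 1073 FPKM in sham libraries. Of 8 nociceptor genes 4 fell and 0 rose, with a summed level of 563 to 658 FPKM in pIONT and 700.2 to 772 FPKM in sham libraries. Of 6 Schwann cell genes 5 fell and 0 rose, at 3730.0 to 4000.0 FPKM in pIONT and 4504 to 4991 FPKM in sham libraries. Of 6 genes of satellite glia 2 rose and 0 fell, at 2945 to 3631 FPKM in pIONT and 2559 to 2738 FPKM in sham libraries. Fewer cells of a type and less RNA per cell cannot be told apart in such bulk samples, and the part of these lists, and of the macrophage and pituitary genes, in the results above was not tested. Fibroblast and meningeal genes had 0 calls of 7, with 313 FPKM in pIONT 2 and 202 to 204 FPKM in the other pIONT libraries, against 159 to 218 FPKM in sham libraries. Pituitary genes, glia of the brainstem root, red blood cells and skeletal muscle had 0 calls of 5, 5, 5 and 2 tested genes. None of 6 markers of central neurons reached the filter, and together they were at 0.442 FPKM or less in every library. All 6 nerve injury genes rose. Among them Atf3, a transcription factor induced in injured sensory neurons, was at 189.5, 227 and 165 FPKM in pIONT libraries, against 5.86, 4.09 and 6.57 FPKM in sham libraries.

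**Figure D4:**
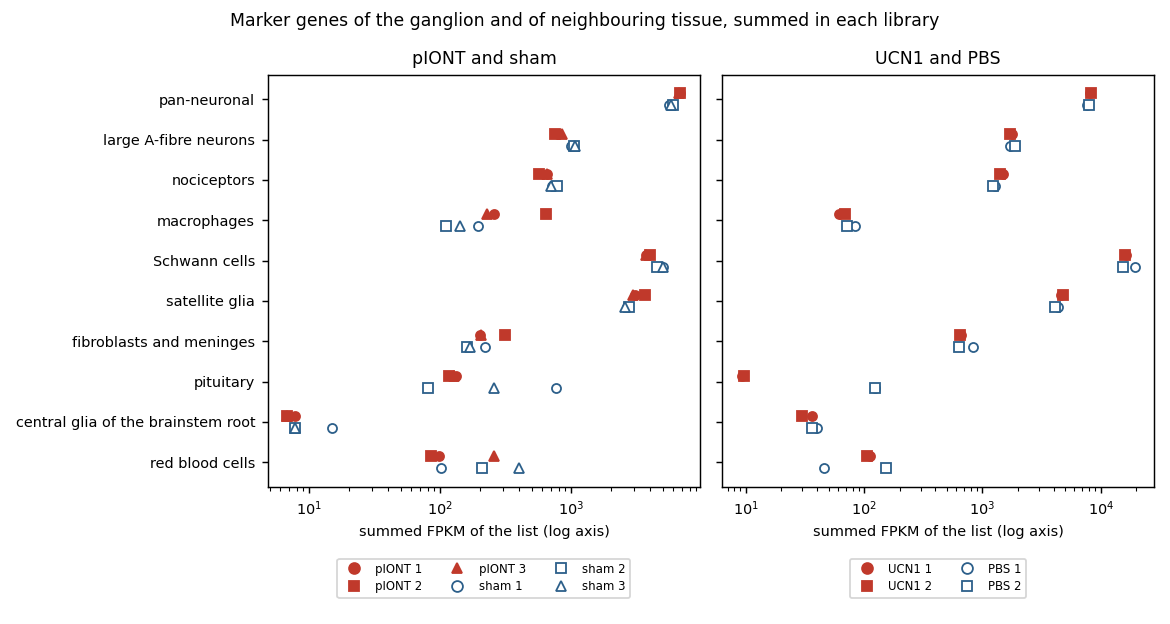
Summed FPKM of each marker list (horizontal log axis) in every library, for pIONT and sham (left) and UCN1 and PBS (right). Macrophage genes are highest in pIONT 2 at 638 FPKM, and pituitary genes sum to 9.21 to 9.61 FPKM in UCN1 and 124 FPKM in each PBS library.

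Other genes of the same machinery, taken from 2 further lists of 86 names, were called in both directions. Of 75 tested, 11 rose (14.7%, beside 10.5% of all genes) and 17 fell (22.7%, beside 12.3%), with a median log2 fold change of -0.04. In the list of other release machinery 6 of 43 rose and 8 fell, and in that of other vesicle and endocytic proteins 5 of 32 rose and 9 fell. With TPM scaling the split was 6 higher and 19 lower, and with pan-neuronal scaling 5 and 25. The 6 with the smallest p were an active zone gene and 5 of vesicles and endocytosis. Erc2, an active zone scaffold, was at 9.31, 8.85 and 8.95 FPKM in pIONT libraries, against 6.65, 6.33 and 6.38 FPKM in sham libraries, a log2 fold change of 0.46 ± 0.05 (SE, adjusted p = 0.00127 by limma). Sh3gl2 (endophilin A), which curves the vesicle neck, was at 14.6, 13.4 and 15.6 FPKM in pIONT libraries, against 20.8, 22.1 and 21.3 FPKM in sham libraries, a log2 fold change of -0.55 ± 0.06 (SE, adjusted p = 0.0019 by limma). Snap91, a clathrin adaptor of synapses, was at 33.1, 31.5 and 31.5 FPKM in pIONT libraries, against 24.0, 26.1 and 25.0 FPKM in sham libraries, a log2 fold change of 0.35 ± 0.05 (SE, adjusted p = 0.00383 by limma). Erc2 and Snap91 were higher and Sh3gl2 lower in every pIONT library. Cltb, a clathrin light chain, rose, with a log2 fold change of 0.38, and the vesicle proteins Scamp5 and Syngr1 had log2 fold changes of -0.27 and -0.46 (limma adjusted p = 0.00384, 0.00687 and 0.00887). Endocytic genes thus included some that rose, in contrast to Dnm1, Amph and Synj1. Leaving out sham 3 cut the calls of these lists to 5 higher and 6 lower.

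After UCN1 no release gene was called. Doc2b was below the filter, at 0.350 and 0.292 FPKM in UCN1 libraries, against 0.161 and 0.363 FPKM in PBS libraries, and of the 43 tested 0 were called in limma, beside 0.304% higher and 0.297% lower among all genes (0.601% in all). None of the 43 had an unadjusted p under 0.05 in limma, beside 2113 of all 16139 genes (13.1%), and voom called 0 as well. The log2 fold changes ran from -0.22 in Rims2 to 0.62 in Rab3a, with a median of 0.02, beside -0.01 over all genes. In 17 genes the UCN1 values lay on 1 side of the PBS values (39.5%), beside 45.5% of all genes. The 95% interval lay between -0.5 and 0.5 in 38 of the 43 and between -1 and 1 in 42. With 2 libraries a group, an adjusted p above 0.05 does not show that a gene did not change. These intervals give the sizes that the data allow.

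Among the SNARE proteins, Snap25 was at 475 and 455 FPKM in UCN1 libraries, against 458 and 509.8 FPKM in PBS libraries. The groups overlapped, and the log2 fold change of -0.06 had a 95% interval of -0.25 to 0.14. Vamp1 was at 339 and 378 FPKM in UCN1 libraries, against 330.4 and 334 FPKM in PBS libraries. Vamp2 was at 301 and 289 FPKM in UCN1 libraries, against 312 and 327 FPKM in PBS libraries. In neither gene did the groups overlap, with log2 fold changes of 0.11 for Vamp1 and -0.12 for Vamp2, and neither was called (limma adjusted p = 0.623 and 0.564). Nsf was at 488 and 465 FPKM in UCN1 libraries, against 497 and 530.3 FPKM in PBS libraries, with no overlap and a 95% interval of -0.29 to 0.08. Napa overlapped between groups, at 383 and 417 FPKM in UCN1 libraries, against 366 and 395 FPKM in PBS libraries.

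Of the 7 tested synaptotagmins the groups overlapped in 4 and did not in 3 (42.9%, beside 45.5% of all genes). Syt2 was at 206 and 204 FPKM in UCN1 libraries, against 186 and 190.4 FPKM in PBS libraries. Its 2 UCN1 values were above both PBS values, with a log2 fold change of 0.12 and a 95% interval of -0.05 to 0.30. Syt4 was at 21.1 and 13.5 FPKM in UCN1 libraries, against 18.9 and 18.4 FPKM in PBS libraries, so that the UCN1 values lay on either side of the PBS values, and its interval was -0.58 to 0.30. Syt7 was at 116 and 124 FPKM in UCN1 libraries, against 116 and 128 FPKM in PBS libraries, overlapping between groups, and its interval was -0.23 to 0.18.

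Of the vesicle proteins, Sv2b had the lowest log2 fold change, -0.13, at 112 and 115 FPKM in UCN1 libraries, against 122 and 127 FPKM in PBS libraries. These groups did not overlap (limma adjusted p = 0.528). Sv2a was at 19.0 and 18.4 FPKM in UCN1 libraries, against 19.7 and 17.0 FPKM in PBS libraries, Sv2c at 329 and 359 FPKM in UCN1 libraries, against 313 and 369 FPKM in PBS libraries. Syp was at 191 and 203 FPKM in UCN1 libraries, against 197 and 208 FPKM in PBS libraries. The groups of these 3 genes overlapped, and their 95% intervals were -0.24 to 0.31, -0.21 to 0.25 and -0.23 to 0.15. Syn2 was at 65.6 and 62.6 FPKM in UCN1 libraries, against 61.6 and 58.7 FPKM in PBS libraries, without overlap and with an interval of -0.11 to 0.29.

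Rab3a was set apart by a single control library. It was at 192 and 203 FPKM in UCN1 libraries, against 84.8 and 193 FPKM in PBS libraries, so that PBS 2 lay between the UCN1 libraries and PBS 1 far below them. The log2 fold change was 0.62 with a 95% interval of -0.08 to 1.32 and was not called (limma adjusted p = 0.43). Without PBS 2 it was 1.21 and called, and without PBS 1 it was 0.03 and not called (limma adjusted p = 0.0329 and 0.936, and 0.0329 to 0.936 over 13 alternatives). Rab3c, which rose after pIONT, was at 53.1 and 50.2 FPKM in UCN1 libraries, against 50.2 and 50.4 FPKM in PBS libraries, with overlap between groups. Rph3a was at 194 and 212 FPKM in UCN1 libraries, against 161 and 194 FPKM in PBS libraries, just without overlap, with an interval of -0.04 to 0.44.

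At the active zone, Cplx2 was at 51.4 and 48.0 FPKM in UCN1 libraries, against 44.1 and 45.9 FPKM in PBS libraries. Both UCN1 values were above both PBS values (log2 fold change 0.14, limma adjusted p = 0.548). Rims2 was at 24.5 and 20.9 FPKM in UCN1 libraries, against 25.7 and 27.2 FPKM in PBS libraries, Rims1 at 10.3 and 11.2 FPKM in UCN1 libraries, against 8.74 and 10.5 FPKM in PBS libraries. Pclo was at 10.2 and 9.70 FPKM in UCN1 libraries, against 10.5 and 12.1 FPKM in PBS libraries. Rims2 and Pclo were lower in both UCN1 libraries than in either PBS library, and Rims1 overlapped; the log2 fold changes were -0.22, -0.18 and 0.15 (limma adjusted p = 0.463, 0.618 and 0.689). Cadps was at 164 and 174 FPKM in UCN1 libraries, against 172 and 171 FPKM in PBS libraries, Cadps2 at 12.8 and 12.9 FPKM in UCN1 libraries, against 12.1 and 14.1 FPKM in PBS libraries. Both overlapped between the groups. Dnm1 was at 403 and 439 FPKM in UCN1 libraries, against 398 and 421 FPKM in PBS libraries, Amph at 87.7 and 93.4 FPKM in UCN1 libraries, against 85.8 and 88.8 FPKM in PBS libraries. Synj1 was at 123 and 117 FPKM in UCN1 libraries, against 127 and 135 FPKM in PBS libraries. Of these endocytic genes Synj1 had no overlap, with a log2 fold change of -0.12 (limma adjusted p = 0.574), and the others overlapped.

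Slc17a7 was at 111 and 122 FPKM in UCN1 libraries, against 126 and 126 FPKM in PBS libraries, and Slc17a6 was at 109.8 and 106 FPKM in UCN1 libraries, against 110.2 and 114 FPKM in PBS libraries. All UCN1 values of Slc17a7 and Slc17a6 were below the PBS values, with log2 fold changes of -0.11 and -0.06 (limma adjusted p = 0.615 and 0.8). Sncb was at 146 and 162 FPKM in UCN1 libraries, against 135 and 155 FPKM in PBS libraries, with overlap. Sncg was at 914 and 936 FPKM in UCN1 libraries, against 756 and 854 FPKM in PBS libraries, higher in both UCN1 libraries. Its log2 fold change was 0.20 with a 95% interval of -0.0004 to 0.41, and it was not called (limma adjusted p = 0.382). Nrxn2 was at 36.2 and 42.0 FPKM in UCN1 libraries, against 38.2 and 42.1 FPKM in PBS libraries, Nrxn3 at 13.9 and 14.7 FPKM in UCN1 libraries, against 12.4 and 15.7 FPKM in PBS libraries. Both overlapped between the groups.

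**Figure D5:**
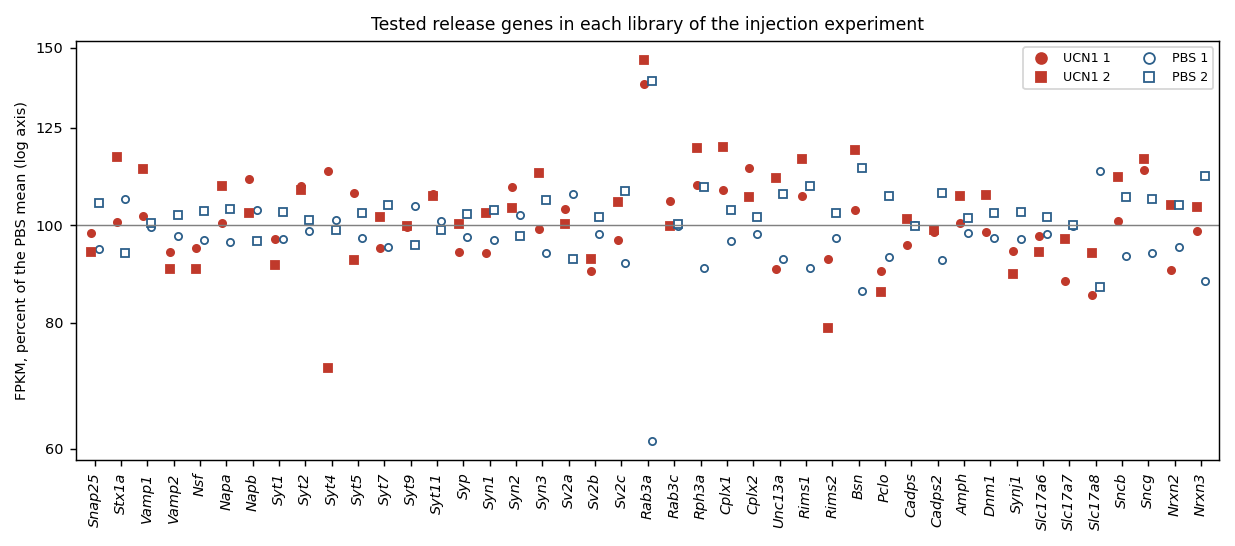
FPKM of the 43 tested release genes in each library of the injection experiment as a percentage of the PBS mean (vertical log axis). Filled red symbols are UCN1 and open blue symbols are PBS libraries; Rab3a stands out through PBS 1 alone, at 84.8 FPKM beside 193 FPKM in PBS 2.

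Some markers of pituitary and meningeal cells differed between the groups. Pituitary genes summed to 9.21 and 9.61 FPKM in UCN1 and 124 FPKM in each PBS library, with 3 of 5 lower, and 3 of 7 fibroblast and meningeal genes were lower (Mfap4, Fmod and Slc47a1). The sums of the fibroblast list overlapped, at 643 to 659.5 FPKM in UCN1 and 631 to 826 FPKM in PBS libraries, and Col3a1 and Dcn, collagen and proteoglycan genes of fibroblasts, had log2 fold changes of 0.11 and 0.05 (limma adjusted p = 0.801 and 0.875). The part of this difference in the values above was not tested. Of pan-neuronal genes 0 of 12 were called, at 8048 to 8239 FPKM in UCN1 and 7713 to 8022 FPKM in PBS libraries. Large A-fibre neurons, nociceptors, macrophages, Schwann cells and satellite glia also had 0 calls, of 9, 8, 6, 6 and 6 genes, with 1, 2, 1, 0 and 3 at an unadjusted p under 0.05 in limma. Glia of the brainstem root, red blood cells and skeletal muscle had 0 calls of 4, 4 and 2 tested genes, none of 6 markers of central neurons passed the filter, and of the nerve injury genes 1 of 3 tested rose, Atf3 at 1.18. Of the 76 tested genes of the further release lists 0 were called in limma, with 4 (5.26%) at an unadjusted p under 0.05, beside the 13.1% of all genes. Side by side, the 22 genes that fell after pIONT had log2 fold changes of -0.22 to 0.62 after UCN1, 11 of them below 0, and the 4 tested genes that rose after pIONT had -0.14 to 0.09. The 2 experiments have no control library in common, and the difference between them was not tested.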

How the data were processed

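The deposited values are FPKM per gene, one table for each experiment, made by the authors. Of tools and builds, STAR, HTSeq, DESeq2 and GRCm39 are named in the submitters' processing notes, without parameters; per the labels' protocols, libraries were made from total RNA with an NEBNext Ultra II kit. The coordinates of the injection table are those of GRCm38 (99.42% of its genes share start and end with GENCODE vM21) and those of the surgery table are not (1.99%), so each table was tested only within itself. No source used here says whether counting used strand. Symbols were taken from GENCODE vM21 by identifier.

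Values were analysed as log2(FPKM + 0.5) with limma 3.58.1 (lmFit and eBayes with a trend) in R 4.3.3, with no covariate, for genes with a mean of at least 0.5 FPKM, and Benjamini-Hochberg adjustment over all genes tested in a table. The fits were tested on simulated data. Reads per library were recovered from the steps of low values. They came out whole, within 0.1 of a read, for 92.45% to 92.92% of low values in the surgery and 98.83% to 99.04% in the injection experiment, and served for voom as an alternative. No row or column of either table was left out for want of a sample. The 44 genes, the lists of pathway and marker genes and the motifs were chosen with earlier results of these data known. Values in every library are given for each called gene, and otherwise for the genes with the highest level of a role; of the pathway lists, the 6 called genes with the smallest p are named. Beyond this rule, values of some uncalled genes are given where a paralog is described, and the gene pairs were chosen after their values were seen. One name of the pathway lists matched no identifier. Alternatives were other pseudocounts (0.1 and 1), filters (none and 2 FPKM), scalings (median of ratios, TPM and pan-neuronal genes), voom, a replicate block and leaving out each library. Promoters are RefSeq windows on GRCm38.p6.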

Additional observations from a re-analysis of the deposited data

How the results depend on the processing

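The 27 called release genes kept their direction after pIONT in all 15 alternatives (Doc2b in the 11 in which it was tested), and Napa, Rab3c and Syt4 of the higher and 11 of the 22 lower ones were called in every alternative. Doc2b is left out of this count, since the filter selects it on its pIONT level. Leaving out 1 library at a time gave 16 to 26 called members, of which 11 to 22 were lower and 4 to 5 higher. Over all genes this gave 1689 to 2969 calls, 922 to 1389 higher and 767 to 1580 lower, and for the other pathway genes 11 to 20 calls, 5 to 7 higher and 6 to 13 lower. These fits have fewer libraries. The higher pathway genes were 7 with no filter, 6 with TPM and 5 with pan-neuronal scaling; the cause was not tested. After UCN1 there were 2 calls with no filter (0 higher, 2 lower), 155 at 2 FPKM (84 higher), 352 with voom (164 higher, 188 lower) and 29 higher with TPM scaling, and the cause was not tested. Leaving out a UCN1 or PBS library gave 5 to 38 calls, 0 to 19 higher and 4 to 19 lower, and 0 to 1 called members, all higher; the group left with 1 library is assumed to vary like the other.

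Deviations of same-numbered libraries from their group means had correlations of -0.0551, -0.202 and 0.0676 after surgery and 0.0387 after injection. With 2 libraries a group the deviations mirror each other, so the injection check holds a single correlation and its opposite. These values do not settle whether the numbers pair the samples. With the replicate block, 2085 genes were called after pIONT (1032 lower), 14 members were lower, and 15 other pathway genes were called (5 higher, 10 lower); after UCN1 260 genes were called (124 higher, 136 lower). In the surgery experiment not every library correlated best with its own number.

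Changes of sign occurred only in uncalled genes. After pIONT the log2 fold change was -0.037 with TPM and -0.053 with pan-neuronal scaling in Syt11, -0.024 and -0.039 in Syn1, and -0.025 and -0.039 in Bsn. It was -0.013 with pan-neuronal scaling in Slc17a6, and -0.0092 with a pseudocount of 1 and -0.033 with pan-neuronal scaling in Slc17a8. Leaving out 1 library gave -0.12 to 0.021 in Syt5, -0.029 to 0.026 in Syt11, -0.026 to 0.056 in Syn1, -0.012 to 0.037 in Bsn and -0.34 to 0.32 in Slc17a8. After UCN1 Syt5 had 0.00056 with median-of-ratios and 0.012 with pan-neuronal scaling, Syt9 0.0032 and 0.015, and Cadps2 0.00073 with pan-neuronal scaling, while TPM scaling gave -0.011 in Sv2c and -0.019 in Unc13a. Leaving out 1 library of the injection experiment gave -0.13 to 0.021 in Snap25, -0.46 to 0.17 in Syt4, -0.11 to 0.10 in Syt5, -0.089 to 0.046 in Syt7, -0.065 to 0.061 in Syt9, -0.087 to 0.0030 in Syp, -0.092 to 0.040 in Syn1, -0.0073 to 0.15 in Syn3, -0.073 to 0.14 in Sv2a, -0.10 to 0.14 in Sv2c, -0.0017 to 0.078 in Rab3c, -0.14 to 0.16 in Unc13a, -0.039 to 0.36 in Bsn, -0.064 to 0.020 in Cadps, -0.12 to 0.092 in Cadps2, -0.022 to 0.10 in Dnm1, -0.28 to 0.034 in Slc17a8, -0.0086 to 0.19 in Sncb, -0.14 to 0.068 in Nrxn2 and -0.14 to 0.20 in Nrxn3.

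Depth limits Doc2b, which rests on at most 120 reads a library. In the surgery experiment it also limits Syn3, with 104 to 186 reads, and Slc17a8, with 61 to 227. Leaving out libraries measures only the spread within these 10.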
